A study of Saccharomyces cerevisiae with 12 samples.

Results

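The strain difference in the ATP response is the change in transcript levels that extracellular ATP gave in budding yeast carrying the transporter NTT1, minus the change it gave in the strain without it. It uses all 12 of the 12 RNA sequencing libraries of the series, chosen by their labels and not by any measured value, and 6157 of the 7127 features in the count table, those that passed a filter on low counts. The 4 groups of 3 replicates are NTT1 with 5 mM ATP in the medium for 1 h, NTT1 without ATP, wild type with the same ATP treatment, and wild type without ATP. All cultures grew in complete synthetic medium at mid-log phase. The NTT1 strain has the genotype PH-NTT1, integrated at a genomic locus, on the BY29034 background with the QUEEN reporter. The wild type is an empty-vector control. Strain comparisons therefore cover transporter, integration and reporter together, and the labels name neither the promoter of the construct nor the number of NTT1 clones. Levels of the NTT1 and QUEEN transcripts were not analysed here. The 6 wild-type samples each carry a strain name of their own, BY29034 to BY29039, and whether these are separate isolates is not stated, so p-values measure the spread between these samples.

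NTT1 comes from the microsporidian parasite Encephalitozoon cuniculi, where transporters of this family move nucleotides between the host cell and the parasite. Yeast plasma membrane has no well-described ATP importer, and ATP outside the cell can be cleaved by secreted phosphatases. Inside the cell, adenine nucleotides feed back on purine synthesis, and purine, histidine and one-carbon genes share the activators Bas1 and Gcn4. Nutrient signals through protein kinase A and the TOR kinase complex 1 (TORC1) raise ribosome assembly genes and hold down stress genes.

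The quantity reported for each gene is the interaction, the log2 fold change with ATP in NTT1 minus that in wild type. A positive value means that the ATP effect was more positive in NTT1, and it can arise from a rise in NTT1, a fall in wild type or both. Levels are CPM, the deposited raw counts scaled to a common library size with TMM factors. They are not per gene length, so they compare libraries and not genes. Library totals ran from 14845855 to 20714804 counts.

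The libraries were not equally alike within groups. The median over genes of the SD of log2 CPM was 0.0819 in treated NTT1, 0.0967 in untreated NTT1, 0.0717 in treated wild type and 0.172 in untreated wild type. On the first principal component, which held 47.0% of the variance, treated libraries of both strains lay between 8.53 and 14.3 and untreated NTT1 between -9.12 and -6.91. In untreated wild type, the scores were -21.5 for replicate 1, -25.5 for replicate 2 and 1.81 for replicate 3, which stood nearer the treated libraries. On the second component, with 15.2% of the variance, replicate 2 had the highest score of all libraries, 15.9. Replicates 1 and 3 had -7.41 and -9.47. Which of the 3 is unusual was not tested. All 3 are kept, and results that rest on replicate 3 are also given without it. LEU2, MET17 and MATALPHA1 had 0 counts in every library of both strains. Of the a-cell genes, MFA2, which encodes the a-factor pheromone, stood at 171 to 254 CPM. STE2 stood at 543 to 699.6, BAR1 at 99.6 to 140.2, MFA1 at 51.8 to 109 and AGA2 at 34.6 to 46.4 CPM. Of the alpha-cell genes, SAG1 stood at 41.8 to 50.4, STE3 at 12 to 17.1, MF(ALPHA)2 at 7.89 to 11.6 and MF(ALPHA)1 at 0.46 to 1.25 CPM. Mating type was not tested.

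At an adjusted p under 0.05 in edgeR's quasi-likelihood test, 0 of the 6157 genes differed between the strains in their ATP response, a share of 0%, and the smallest adjusted p was 0.388, shared by 4 genes. At an unadjusted p under 0.05 there were 365 genes, or 5.93%, with 203 (3.3%) more positive and 162 (2.63%) more negative in NTT1. The DESeq2 Wald test called 6 genes, and limma's voom with sample quality weights called 3. The same edgeR fit called 275 genes for ATP in NTT1, with 183 higher (2.97%) and 92 lower (1.49%) with ATP, and 784 for ATP in wild type, with 334 higher (5.42%) and 450 lower (7.31%). On simulated counts, the test recovered 78% of genes given an interaction of 1 on the log2 scale. The simulation drew libraries independently, with the same spread in all 4 groups for a given gene. It left out the wider spread of untreated wild type (median SD 0.172), whose replicates stood apart from each other. The 78% is therefore not the power of the test on these libraries.

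The 95% interval of the difference gives a range of sizes for each gene, not adjusted over the 6157 genes. It uses 1 estimate of the spread for all 4 groups, although untreated wild type varied most (median SD 0.172). The 95% interval lay within -1 and 1 for 5374 genes, or 87.3% of those tested, and the median SE was 0.14. RGS2, a negative regulator of the glucose-sensing G protein, is an example of a large response in both strains. It stood at 224, 167 and 225 CPM in treated and 44.8, 49.9 and 72.6 CPM in untreated NTT1. In wild type it stood at 163, 121 and 170.4 CPM with ATP and 39.2, 41.4 and 55 CPM without. Every treated library lay above every untreated one in both strains, and the interaction was 0.14 with a 95% interval from -0.50 to 0.78. HAP4, the regulatory subunit of the activator of respiratory genes, fell with ATP by 0.93 on the log2 scale in NTT1 (adjusted p 0.0335, edgeR) and by 1.05 in wild type (adjusted p 0.0158). Its interaction was 0.12, with a 95% interval from -0.53 to 0.77.

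**Figure D1:**
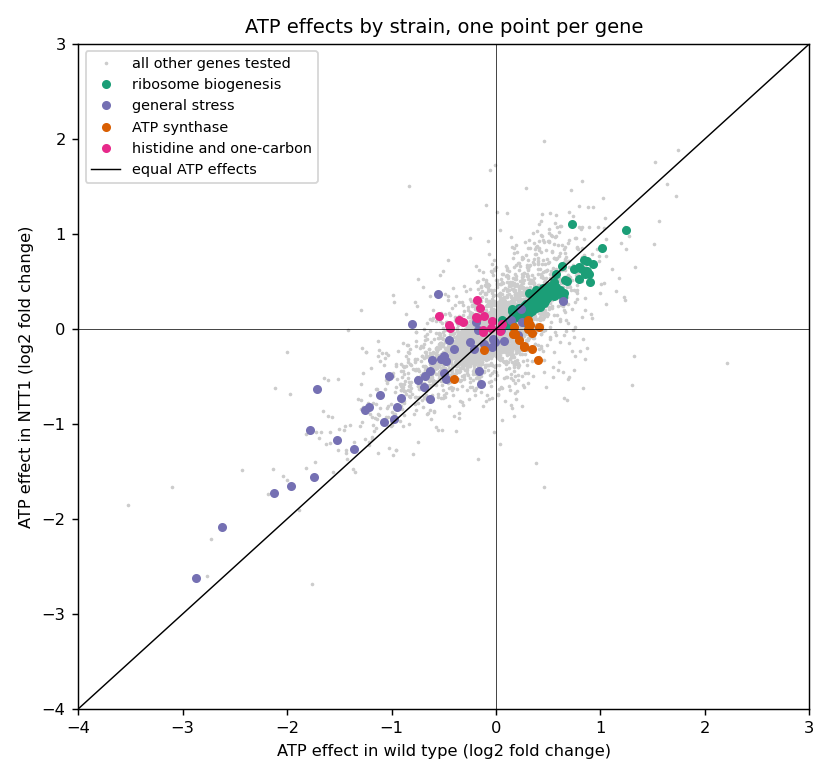
Fitted ATP effect (log2 fold change) in NTT1 on the vertical axis and in wild type on the horizontal axis for each of the 6157 genes tested, with 4 gene lists coloured. The diagonal marks equal effects, and vertical distance from it is the interaction. ATP synthase genes lie below the diagonal, at a median interaction of -0.29, and histidine and one-carbon genes above it, at 0.31.

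Among the 365 genes, ATP effects of opposite sign in the strains were the usual pattern. They were found in 240 of them, or 65.8%, against 26.1% of all genes tested, while 69 had the same sign and a smaller effect in NTT1 and 56 the same sign and an effect at least as large. These shares describe the choice by p as much as the genes. For 244 of the 365 (66.8%, against 58.5% of all genes) the mean level differed more between the strains without ATP than with it. Over all 6157 genes, 29 (0.471%) had treated and untreated libraries that did not overlap in either strain and lay in opposite order, 10 of them (0.162%) higher with ATP in NTT1 and lower in wild type, and 19 (0.309%) the reverse.

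The interaction followed gene length across the genome. Over 5775 protein-coding genes, ranked by annotated length, Spearman's rho between length and interaction was 0.37, across genes that share the 12 libraries. These lengths run from gene start to gene end, any introns included, and 96.3% of them are multiples of 3. For genes with introns they exceed the coding length. The median interaction was -0.12 in the shortest 10% of genes, of 78 to 435 bases, and 0.10 in the longest 10%, of 2880 to 14733 bases, and it stepped upward through each of the 10 length classes. In the shortest class, 10 genes had an unadjusted p under 0.05 with a positive interaction and 73 with a negative one, and in the longest class 57 and 0. Relative to each gene's mean, the shortest class stood lowest in untreated wild-type replicates 2 and 3, at -0.071 and -0.031, and in the 3 treated NTT1 libraries, at -0.058, -0.032 and -0.034 on the log2 scale. It stood highest in untreated NTT1 replicate 2, at 0.13. With a smooth offset for length in each library, an alternative added after seeing the data, rho was 0.013 and the genes with an unadjusted p under 0.05 numbered 269, or 4.37%, with 154 higher (2.5%) and 115 lower (1.87%). Whether the length trend came from RNA quality, library preparation or the cells cannot be told apart here, and values with the offset are given beside the genes below.

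**Figure D2:**
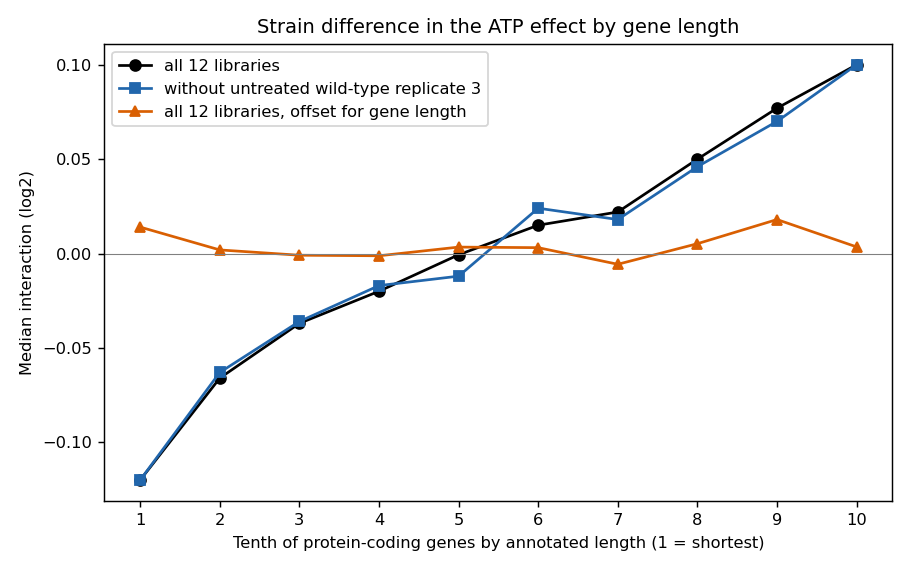
Median interaction (log2, vertical axis) in each of 10 equal classes of protein-coding genes by annotated length (horizontal axis), for all libraries, without untreated wild-type replicate 3, and with an offset for length. Without the offset both lines climb, from -0.12 in the shortest class to 0.10 in the longest, and with it the medians lie between -0.0057 and 0.018.

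Of the 10 named genes with the smallest p among positive interactions, 7 fell with ATP in wild type at an adjusted p under 0.05, and their log2 fold changes in NTT1, from -0.17 to 0.20, did not pass. In such cultures fewer cells with a transcript and less of it per cell cannot be told apart. UBR2, a ubiquitin ligase that marks the proteasome gene activator Rpn4 for breakdown (YLR024C, chromosome XII, 187663 to 193281, minus strand, build R64), had the smallest p. It stood at 35.7, 36.7 and 39.8 CPM in treated and 33.4, 37.3 and 35.4 CPM in untreated NTT1. In wild type it stood at 31.7, 28.5 and 29.4 CPM with ATP and 40.0, 44.9 and 45.3 CPM without. The NTT1 groups overlapped, and the wild-type groups did not. Its log2 fold change with ATP was 0.08 in NTT1 and -0.54 in wild type (adjusted p 0.00611, edgeR), and the interaction was 0.62 (SE 0.11, adjusted p 0.388). DESeq2 called it (adjusted p 0.00205). With the length offset, which bears on it as a gene of 5619 bases, the interaction was 0.49 (unadjusted p 0.000388).

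HPF1 (YOL155C, chromosome XV, 28703 to 31606, minus strand), a cell wall mannoprotein, and CSS1 (YIL169C, chromosome IX, 23119 to 26106, minus strand), which resembles it, were also highest in untreated and lowest in treated wild type on average. They share a stretch of 511 aligned bases at 95.9% identity, so reads could be split between them and they are not independent. HPF1 stood at 220.1, 225 and 229 CPM in treated and 221, 201 and 220.0 CPM in untreated NTT1, against 209, 197 and 199 CPM in treated and 305, 274 and 257 CPM in untreated wild type. The untreated wild-type libraries were high and the other 9 lay within 197 to 229 CPM. Its interaction was 0.54 (SE 0.10, adjusted p 0.388), with an ATP effect of -0.47 in wild type (adjusted p 0.00864). CSS1 averaged 175 ± 16.4 CPM in treated and 197 ± 10.4 in untreated NTT1, against 149 ± 10.4 in treated and 267 ± 24.4 in untreated wild type (SD, n = 3 each). Its interaction was 0.68 (SE 0.13, adjusted p 0.388). DESeq2 called both HPF1 (adjusted p 0.00205) and CSS1 (adjusted p 0.0032), and voom with sample quality weights called both of them and ATR2.

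THR1, which encodes homoserine kinase of threonine synthesis (YHR025W, chromosome VIII, 159438 to 160511, plus strand), differed from these in that ATP raised it in both strains. It stood at 284, 369.7 and 282 CPM in treated and 155, 118 and 133 CPM in untreated NTT1, against 286, 287 and 271 CPM in treated and 198, 225 and 201 CPM in untreated wild type. The treated groups of the strains overlapped, and untreated NTT1 lay below untreated wild type in every library. Its log2 fold change was 1.2 in NTT1 (adjusted p 0.00189) and 0.44 in wild type (adjusted p 0.0387), and the interaction was 0.77 (SE 0.17, adjusted p 0.559). DESeq2 called it at an adjusted p of 0.0327. At 1074 bases it hardly moved with the length offset, at 0.77.

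ATR2, a membrane transporter gene (YMR279C, chromosome XIII, 824729 to 826351, minus strand), had treated and untreated libraries in opposite order in the strains. It stood at 28.5, 27.8 and 30.3 CPM in treated and 26.9, 21.5 and 27 CPM in untreated NTT1, against 22, 23 and 23.4 CPM in treated and 36.2, 40.1 and 27.4 CPM in untreated wild type. In NTT1 all 3 treated libraries were the higher ones, and in wild type the lower ones. The interaction was 0.80 (SE 0.18, adjusted p 0.587), and 0.77 with the length offset. PHD1, a transcription factor of filamentous growth, showed the same order, at 63.3 ± 5.96 CPM in treated and 52.1 ± 6.55 in untreated NTT1, against 48.7 ± 3.07 in treated and 62.3 ± 7.04 in untreated wild type. Its interaction was 0.64 (SE 0.16, adjusted p 0.587). DTR1, a transporter of the spore wall precursor dityrosine, stood at 4.09 to 6.21 CPM on average in the 4 groups and had an interaction of 0.71 (SE 0.16, adjusted p 0.559). SNT2, a chromatin-bound ubiquitin ligase, had 0.47 (SE 0.10, adjusted p 0.559), and 0.37 with the length offset.

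Among the 20 genes with the smallest p, TOR1, KOG1 and EGO2 encode parts of TORC1 signalling, a grouping made after the values were seen. TOR1, the kinase itself, stood at 48.3, 43.7 and 47.5 CPM in treated and 41.8, 38.4 and 41.3 CPM in untreated NTT1, against 45.3, 43.1 and 38.8 CPM in treated and 52.9, 54.2 and 46.6 CPM in untreated wild type. Treated and untreated libraries separated in both strains, in opposite order. The interaction was 0.47 (SE 0.11, adjusted p 0.587). KOG1, the subunit that binds its substrates, had the same interaction, SE and adjusted p, and it rose by 0.37 with ATP in NTT1 (adjusted p 0.0306), against -0.10 in wild type (adjusted p 0.462). EGO2, a small subunit of the vacuolar complex that activates TORC1, ran the other way. It stood at 14.2, 13.2 and 14.1 CPM in treated and 16.6, 19.3 and 16.5 CPM in untreated NTT1, against 15, 15.1 and 16.4 CPM in treated and 14.1, 11.5 and 11.1 CPM in untreated wild type. Treated libraries were lower in NTT1 and higher in wild type without overlap, and the interaction was -0.68 (SE 0.15, adjusted p 0.559). TOR1 is 7413 and KOG1 4674 bases long and EGO2 228, and with the length offset the interactions were 0.33, 0.35 and -0.50.

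Besides EGO2, the genes with the smallest p among negative interactions were mostly short, and 4 encode mitochondrial ribosomal proteins. MRPL37, of the large subunit, averaged 32.3 ± 0.183 CPM in treated and 36.8 ± 2.04 in untreated NTT1, against 38.8 ± 1.25 in treated and 30.2 ± 4.29 in untreated wild type. Its interaction was -0.55 (SE 0.13, adjusted p 0.587), and -0.41 with the length offset. RTC6, MRPL32 and RSM27, also mitochondrial ribosomal proteins, had interactions of -0.38, -0.33 and -0.30, and -0.23, -0.26 and -0.17 with the offset. MGP12 (-0.46), NCE101 (-0.75, an export factor for proteins that lack a signal peptide), FOL3 (-0.32, dihydrofolate synthetase) and TAD2 (-0.49, a subunit of the tRNA adenosine deaminase) completed the set with GPP2. Each had an adjusted p from 0.587 to 0.655.

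GPP2 encodes a glycerol-3-phosphate phosphatase of the osmotic response (YER062C, chromosome V, 279930 to 280682, minus strand). Of these genes it had the highest CPM, which is not scaled for gene length. It stood at 734, 539 and 754 CPM in treated and 681, 576 and 606 CPM in untreated NTT1, against 837, 924 and 1052 CPM in treated and 506, 513 and 575 CPM in untreated wild type. The treated wild-type libraries lay above all other libraries, and the NTT1 groups overlapped. ATP raised it by 0.82 in wild type (adjusted p 0.00893), the log2 fold change in NTT1 was 0.12 (adjusted p 0.626), and the interaction was -0.70 (SE 0.18, adjusted p 0.59).

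**Figure D3:**
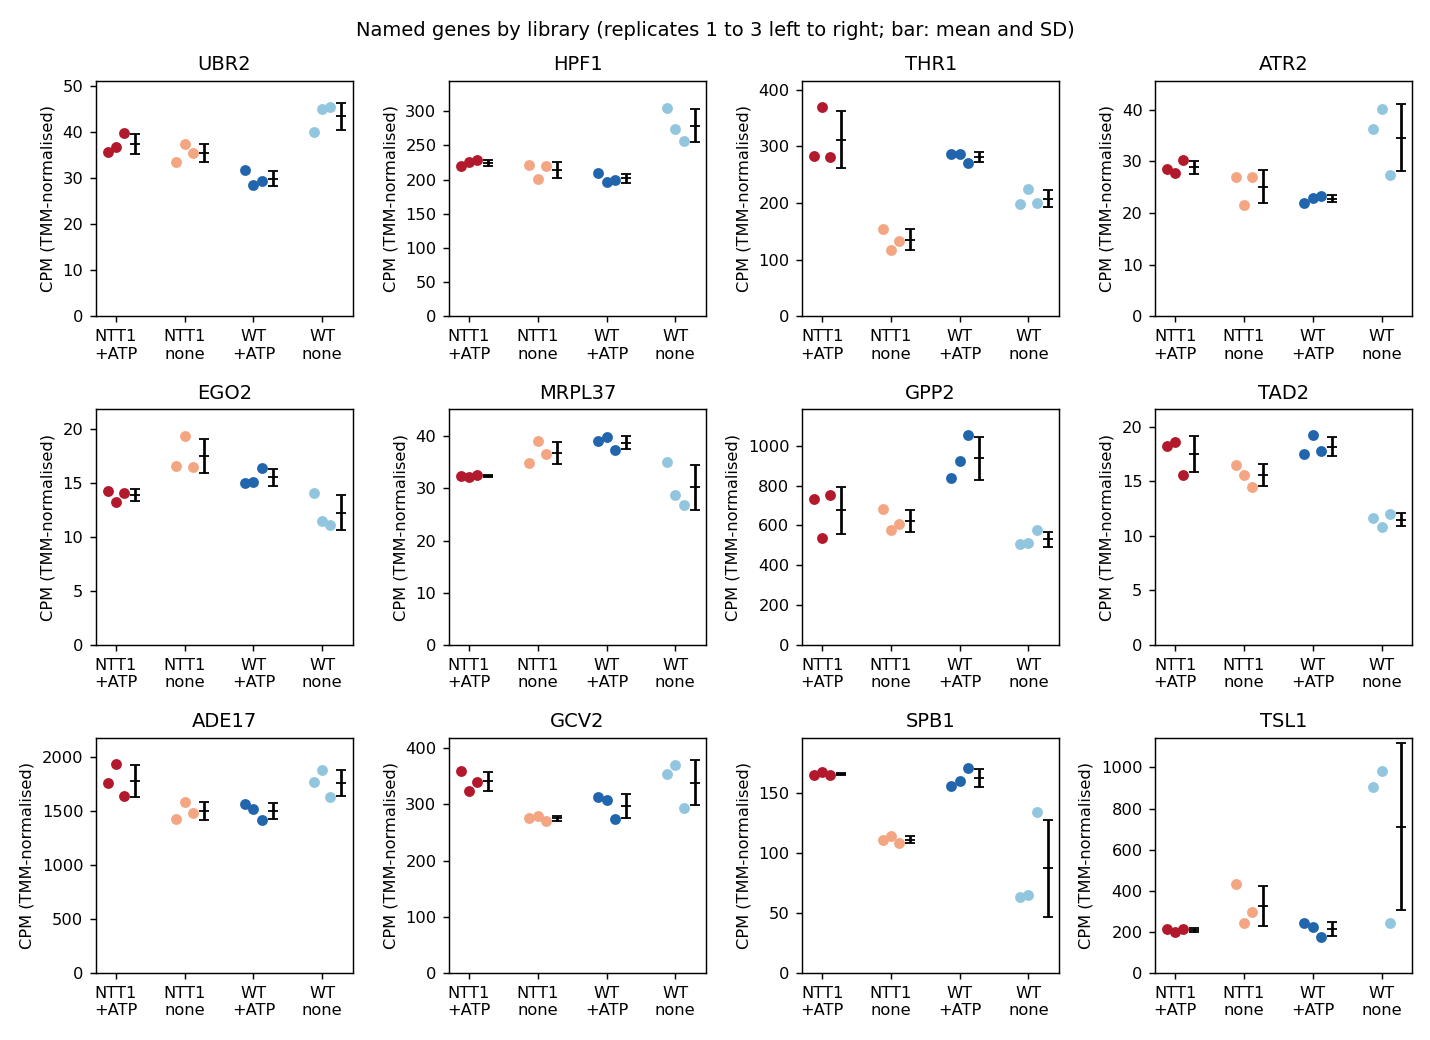
TMM-normalised CPM (vertical axes, from 0) of 12 named genes in each library, by group, with the group mean and SD as black bars (n = 3). UBR2 and HPF1 stand highest in untreated wild type, GPP2 in treated wild type, and in SPB1 and TSL1 untreated wild-type replicate 3, at 134 and 246 CPM, lies apart from replicates 1 and 2.

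One-carbon and histidine genes had the highest list median. Of the 16 genes in this list, 15 had a positive interaction. Over all 6157 genes, 3115 were positive and 3042 negative, the shares to set beside the sign counts of each list. The list's median was 0.31 against 0.0024 over all genes, and 8 (50%, against 3.3% of all genes in that direction) had an unadjusted p under 0.05, all positive. After adjustment over all genes 0 passed. These 8 were GCV2, HIS4, SHM2, MTD1, HIS5, MET13, HIS7 and GCV1. With the length offset the median was 0.32 and 9 passed the unadjusted threshold, against 2.5% of all genes in that direction. The list's mean level, as log2 CPM centred on each gene's mean, was -0.01, 0.12 and -0.062 in treated and -0.057, -0.051 and -0.087 in untreated NTT1, against -0.045, -0.049 and -0.12 in treated and 0.089, 0.15 and 0.12 in untreated wild type. Untreated wild type was thus high in all 3 libraries, replicate 3 included, and of the other 9 libraries treated NTT1 replicate 2 alone reached the same level.

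The median effects of ATP on this list were 0.081 in NTT1 and -0.17 in wild type. In wild type, 2 of the 16 genes fell at an adjusted p under 0.05, against 7.31% of all genes tested. There 0 rose, against 5.42% of all genes. GCV2, the glycine decarboxylase subunit that releases one-carbon units from glycine, stood at 358, 324 and 339.6 CPM in treated and 275, 279 and 271 CPM in untreated NTT1, against 312, 307 and 273 CPM in treated and 353, 369 and 293 CPM in untreated wild type. The NTT1 groups separated and the wild-type groups overlapped at replicate 3. Its interaction was 0.50 (SE 0.13, adjusted p 0.59), and without untreated wild-type replicate 3 it was 0.59 (adjusted p 0.0168). HIS4, a multifunctional enzyme of histidine synthesis, had an interaction of 0.67 (SE 0.19, adjusted p 0.655), from 0.13 in NTT1 and -0.54 in wild type. SHM2, the cytosolic serine hydroxymethyltransferase, stood at 1868, 2081 and 1753 CPM in treated and 1646, 1690 and 1571 CPM in untreated NTT1, against 1738, 1690 and 1594 CPM in treated and 1886, 1951 and 1755 CPM in untreated wild type. Its groups separated in both strains in opposite order, with an interaction of 0.37 (SE 0.11, adjusted p 0.715). MTD1, a methylenetetrahydrofolate dehydrogenase, had a log2 fold change of 0.0098 in NTT1 and fell by 0.44 with ATP in wild type (adjusted p 0.0251).

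Purine synthesis genes showed the same direction with a smaller median. Of 15 genes, 11 had a positive interaction, the median was 0.17 (0.14 with the length offset), and 4 had an unadjusted p under 0.05 (26.7%, against 3.3% of all genes in that direction), all positive, namely ADE17, ADE13, ADE1 and ADE3. ADE17, one of the isoenzymes for the last steps to inosine monophosphate, stood at 1765, 1934 and 1639 CPM in treated and 1431, 1589 and 1488 CPM in untreated NTT1, against 1566, 1517 and 1418 CPM in treated and 1770, 1878 and 1634 CPM in untreated wild type. Treated libraries were all higher in NTT1 and all lower in wild type, and the interaction was 0.47 (SE 0.12, adjusted p 0.587). ADE3, the trifunctional one-carbon enzyme, rose by 0.80 in NTT1 (adjusted p 0.0463), against 0.17 in wild type (adjusted p 0.606), with an interaction of 0.63 (SE 0.28, adjusted p 0.829). In the purine salvage and uptake list, 8 of 19 interactions were positive and the median was -0.03. FCY22, a gene of the purine-cytosine permease family, had the smallest p there, at 0.48 (SE 0.14, adjusted p 0.687).

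Promoters of these genes carry the core TGACTC, the site read by Bas1 and Gcn4, and 4 are shown as examples with matches, picked after their genes' values were seen. Each is the 250 bases from 300 to 51 bases before the annotated gene start in build R64, read 5′ to 3′ on the gene's strand, with TGACTC or its reverse complement GAGTCA in capitals.
ADE17, chrXIII:509331-509580, minus strand: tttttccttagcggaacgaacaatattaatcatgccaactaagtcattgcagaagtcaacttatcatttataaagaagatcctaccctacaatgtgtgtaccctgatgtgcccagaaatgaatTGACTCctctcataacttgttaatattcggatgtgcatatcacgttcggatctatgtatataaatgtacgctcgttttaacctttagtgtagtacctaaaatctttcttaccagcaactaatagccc
GCV2, chrXIII:637200-637449, plus strand: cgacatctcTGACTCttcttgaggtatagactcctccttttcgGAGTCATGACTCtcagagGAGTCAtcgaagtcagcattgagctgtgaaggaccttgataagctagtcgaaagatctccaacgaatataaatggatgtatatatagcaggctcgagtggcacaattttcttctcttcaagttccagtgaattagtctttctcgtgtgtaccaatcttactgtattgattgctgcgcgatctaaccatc
SHM2, chrXII:259452-259701, minus strand: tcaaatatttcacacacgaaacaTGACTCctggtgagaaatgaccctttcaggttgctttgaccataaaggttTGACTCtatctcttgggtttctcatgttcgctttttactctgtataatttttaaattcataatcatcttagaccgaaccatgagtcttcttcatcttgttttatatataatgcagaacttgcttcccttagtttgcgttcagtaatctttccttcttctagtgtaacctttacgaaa
MTD1, chrXI:590095-590344, plus strand: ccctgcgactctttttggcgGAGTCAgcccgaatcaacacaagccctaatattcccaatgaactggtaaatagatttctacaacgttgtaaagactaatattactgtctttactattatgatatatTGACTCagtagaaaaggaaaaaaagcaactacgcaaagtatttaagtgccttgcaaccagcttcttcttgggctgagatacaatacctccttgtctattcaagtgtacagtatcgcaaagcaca
GCV2 had 4 matches, at 291, 257, 251 and 239 bases before the gene start, SHM2 had 2 at 277 and 227, MTD1 had 2 at 280 and 174, and ADE17 had 1 at 177. On either strand, TGACTC was found in 12 of the 16 promoters of the histidine and one-carbon list (75%) and in 10 of the 15 of the purine list (66.7%), against 410 of 6001 windows of the same length (6.83%) and 1 of 17 in the ATP synthase list (5.88%). These lists were drawn from pathways known for this site, so the shares describe the lists.

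Genes of oxidative phosphorylation ran in the other direction. All 17 genes of the ATP synthase list, which covers subunits of the mitochondrial enzyme and its inhibitors, had a negative interaction, against 3042 of all 6157 genes. The median was -0.29, from median ATP effects of -0.055 in NTT1 and 0.31 in wild type. The list's median length is 348 bases, and the shortest class of protein-coding genes had a median interaction of -0.12. Of them, 5 (29.4%, against 2.63% of all genes in that direction) had an unadjusted p under 0.05 (ATP18, ATP19, ATP14, ATP15 and TIM11), and 0 passed after adjustment. These 5 genes are 180 to 375 bases long, within the shortest class. With the length offset the list median was -0.23, with 2 genes past the unadjusted threshold, against 1.87% of all genes in that direction. The list level was 0.087, -0.20 and 0.11 in treated and 0.16, 0.16 and -0.03 in untreated NTT1, against 0.013, 0.091 and 0.12 in treated and 0.066, -0.33 and -0.25 in untreated wild type. Untreated wild-type replicates 2 and 3 and treated NTT1 replicate 2 were low, and the groups overlapped in both strains.

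ATP18, a small subunit of the membrane part of the enzyme (YML081C-A, chromosome XIII, 103983 to 104162, minus strand), stood at 77.8, 72 and 78.4 CPM in treated and 86, 100.1 and 77.5 CPM in untreated NTT1, against 84, 85 and 91.4 CPM in treated and 78.2, 53.2 and 73.8 CPM in untreated wild type. The NTT1 groups overlapped, and treated wild type lay above untreated in every library. Its interaction was -0.55 (SE 0.19, adjusted p 0.722), and -0.35 with the length offset. Of 27 respiratory chain genes tested, 23 had a negative interaction, with a median of -0.23 (-0.16 with the offset, and 0.0033 under voom with sample quality weights), and 5 had an unadjusted p under 0.05 (18.5%, against 2.63% of all genes in that direction), all negative, namely QCR9, COX7, COX13, COX9 and QCR10. QCR9, a subunit of the cytochrome bc1 complex, averaged 56 ± 5.6 CPM in treated and 70.5 ± 9.14 in untreated NTT1, against 66.9 ± 1.08 in treated and 58.2 ± 9.78 in untreated wild type, with an interaction of -0.53 (SE 0.18, adjusted p 0.715). With the offset 1 of these genes kept an unadjusted p under 0.05. Mitochondrial ribosomal proteins gave 61 negative interactions of 69 and a median of -0.11, with 13 genes under 0.05 (18.8%, against the same 2.63%), all negative. With the length offset the median was -0.073, and 7 negative and 1 positive gene passed, against 1.87% and 2.5% of all genes.

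The promoter of ATP18 is shown as an example with CCAAT, the box bound by the Hap complex, in capitals, in the same window and orientation as above.
ATP18, chrXIII:104213-104462, minus strand: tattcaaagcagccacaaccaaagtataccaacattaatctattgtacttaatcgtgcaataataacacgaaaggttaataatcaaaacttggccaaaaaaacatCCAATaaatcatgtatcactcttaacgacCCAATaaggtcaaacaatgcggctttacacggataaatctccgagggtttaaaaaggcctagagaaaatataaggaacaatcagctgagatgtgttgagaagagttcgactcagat
It holds 2 matches, at 195 and 166 bases before the gene start. CCAAT or its reverse complement was found in 15 of 17 promoters of the ATP synthase list (88.2%) and 21 of 27 of the respiratory chain list (77.8%), against 2180 of 6001 (36.3%).

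**Figure D4:**
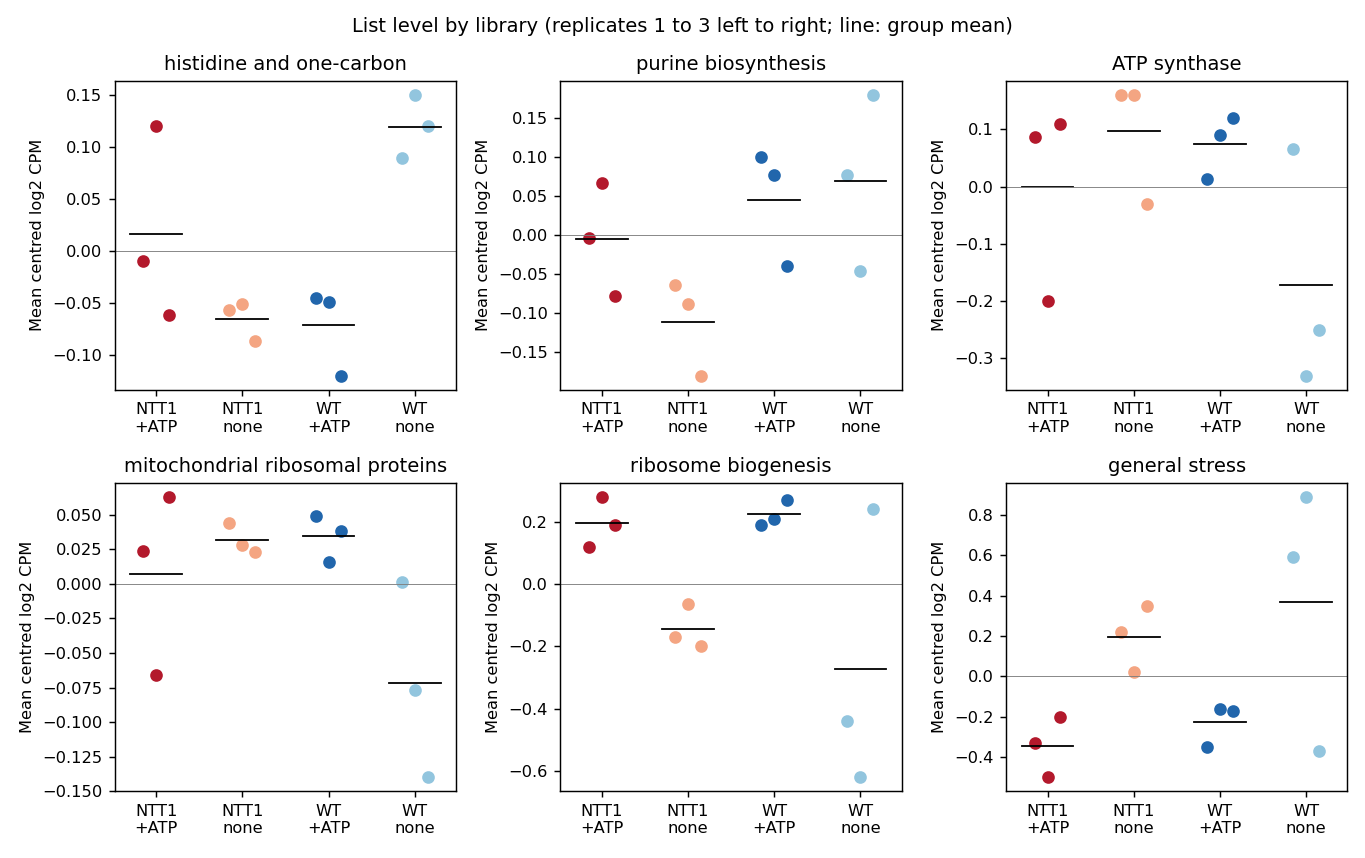
Mean log2 CPM of each list's tested genes, centred on each gene's mean over the 12 libraries (vertical axes), by library and group, with lines at group means. Untreated wild type stands highest on average for histidine and one-carbon genes, at 0.089 to 0.15, and its replicate 3, at 0.24 for ribosome biogenesis and -0.37 for general stress, lies among the treated libraries.

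Without untreated wild-type replicate 3, the same test called 106 of 6181 genes (1.71%), 42 higher (0.68%) and 64 lower (1.04%), with a smallest adjusted p of 0.00503. In the full fit 105 of the 106 had the same direction, on the same remaining libraries, and 21 an unadjusted p under 0.05. In 102 of them the ATP effect was smaller in size in NTT1 than in wild type in that fit, and in 94 both strains had the same sign. Replicate 3 was the untreated wild-type library nearest the treated ones. Its removal by itself favours larger ATP effects in wild type, so these counts do not show a weaker response in NTT1. Leaving out any other single library gave 0 calls, so this count depends on the one library. With the length offset as well, 102 genes (1.65%) were called, 93 of them among the 106. Leaving it out was an alternative listed with earlier results of these data known.

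Ribosome assembly genes made up 32 of the 64 lower calls. Of the 103 genes of the ribosome biogenesis list, 90 had a negative interaction with all libraries, at a median of -0.11, 0 of them with an unadjusted p under 0.05 in either direction. Without untreated wild-type replicate 2 that median was 0.042, so its sign rested on 1 library. Without untreated wild-type replicate 3 the median was -0.40. Of the 103 genes, 32 were then called, all lower, against 1.04% of all genes in that direction. SPB1, a methyltransferase of the large ribosomal subunit's precursor (YCL054W, chromosome III, 31449 to 33974, plus strand), shows how the call arose. It stood at 165, 167 and 165 CPM in treated and 111, 114 and 108 CPM in untreated NTT1, against 156, 160.2 and 171 CPM in treated and 63.2, 65 and 134 CPM in untreated wild type. Treated libraries were the higher ones in both strains, and untreated wild-type replicate 3 lay above untreated NTT1 where replicates 1 and 2 lay below it. The interaction was -0.32 (SE 0.32, adjusted p 0.988) with all libraries and -0.76 (adjusted p 0.00503) without replicate 3.

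HMT1, an arginine methyltransferase, rose with ATP by 0.98 in NTT1 (adjusted p 0.0392) and by 1.27 in wild type (adjusted p 0.0127), with interactions of -0.29 with all libraries and -0.74 without replicate 3 (adjusted p 0.0145). DBP8, an RNA helicase of the small subunit, TRM44, a tRNA methyltransferase, and NRP1, an RNA-binding protein, had -0.73, -0.69 and -0.66 without it (adjusted p 0.0145 each), and -0.27, -0.37 and -0.24 with it (adjusted p 0.992, 0.947 and 0.994). NSR1, a nucleolin-like protein, had the list's smallest p with all libraries, at -0.41 (SE 0.33, adjusted p 0.98). With the length offset the list's median was -0.13 with all libraries and -0.44 without replicate 3.

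The promoters of DBP8 and UTP6, a small-subunit processome protein, are shown with GATGAG, the core of the PAC element of ribosome assembly genes, or its reverse complement CTCATC in capitals, in the same window as above.
DBP8, chrVIII:441881-442130, plus strand: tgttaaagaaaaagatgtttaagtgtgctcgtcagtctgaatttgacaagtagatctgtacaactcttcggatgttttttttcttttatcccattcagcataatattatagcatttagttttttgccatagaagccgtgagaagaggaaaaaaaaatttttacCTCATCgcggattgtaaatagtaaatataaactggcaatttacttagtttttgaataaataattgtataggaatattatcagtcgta
UTP6, chrIV:1358953-1359202, minus strand: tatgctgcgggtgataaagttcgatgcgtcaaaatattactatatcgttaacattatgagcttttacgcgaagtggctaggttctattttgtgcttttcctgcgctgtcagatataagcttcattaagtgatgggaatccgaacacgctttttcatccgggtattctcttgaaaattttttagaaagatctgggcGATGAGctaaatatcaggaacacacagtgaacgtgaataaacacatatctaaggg
Each holds 1 match, at 137 bases before the gene start in DBP8 and 105 in UTP6. The core was found in 94 of 103 promoters of the list (91.3%), against 1067 of 6001 (17.8%), and not in the window of SPB1.

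Stress genes ran the other way. Of 49 genes of the general stress list, 33 had a positive interaction, with a median of 0.16, 0 of them with an unadjusted p under 0.05, and without untreated wild-type replicate 2 the median was -0.068. At an adjusted p under 0.05, ATP lowered 8 of them in NTT1 (against 1.49% of all genes) and 17 in wild type (against 7.31%), with median effects of -0.45 and -0.55. The counts of called genes behind these shares ran from 69 to 1030 in NTT1 and from 89 to 2086 in wild type when 1 library was left out. Without untreated wild-type replicate 3 the median interaction was 0.43. Of the 49 genes, 3 (TSL1, HSP78 and PGM2) were then called, all higher, against 0.68% of all genes in that direction. TSL1, a subunit of the trehalose synthase complex, stood at 214, 199 and 217 CPM in treated and 435, 246 and 297 CPM in untreated NTT1, against 244, 226 and 179 CPM in treated and 907, 984 and 246 CPM in untreated wild type. Replicate 3 of untreated wild type lay at the lowest untreated NTT1 library, and replicates 1 and 2 lay above all others. The interaction was 1.08 (95% interval from -0.14 to 2.31, adjusted p 0.873) with all libraries, and 1.49 (adjusted p 0.025) without replicate 3. PGM2, which makes glucose-1-phosphate for trehalose and glycogen, had 0.72 with all libraries and 1.16 without replicate 3 (adjusted p 0.0365), and the mitochondrial chaperone HSP78 had 0.40 and 0.69 (adjusted p 0.0241).

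Below, the TSL1 promoter has CCCCT, the stress response element read by Msn2 and Msn4, or its reverse complement AGGGG in capitals, in the same window.
TSL1, chrXIII:70324-70573, plus strand: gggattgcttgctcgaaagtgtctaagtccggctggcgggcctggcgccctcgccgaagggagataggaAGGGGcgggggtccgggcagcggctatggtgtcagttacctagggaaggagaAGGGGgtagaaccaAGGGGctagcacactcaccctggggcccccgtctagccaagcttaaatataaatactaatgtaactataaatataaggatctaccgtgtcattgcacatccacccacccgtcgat
It holds 3 matches, at 231, 179 and 165 bases before the gene start. The element was found in 35 of 49 promoters of the list (71.4%), against 1151 of 6001 (19.2%).

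CAT8, an activator of gluconeogenic genes that glucose represses, was the gene with the smallest p in the list of cAMP and glucose signalling. It lies beside ATR2 on chromosome XIII, at 827028 to 831329 on the minus strand. It stood at 15.4, 14.5 and 15.8 CPM in treated and 21.7, 15.7 and 18 CPM in untreated NTT1, against 15.7, 14.5 and 13.1 CPM in treated and 36.8, 39.2 and 19.3 CPM in untreated wild type. The treated groups of the strains overlapped, and untreated wild-type replicates 1 and 2 were the high ones. The interaction was 0.85 (SE 0.32, adjusted p 0.813), and 1.11 without replicate 3 (adjusted p 0.0168). In this list 21 of 25 interactions were positive, at a median of 0.10. Of them, 1 had an unadjusted p under 0.05 (4%, against 3.3% of all genes in that direction). DAK2, a dihydroxyacetone kinase, had an interaction of 1.49 (SE 0.57, adjusted p 0.813) and 1.87 without replicate 3 (adjusted p 0.0163), on levels of 3.4 ± 0.2 CPM in treated and 5.22 ± 1.36 in untreated NTT1, against 3.4 ± 0.606 in treated and 14.9 ± 7.8 in untreated wild type. MLO127 had 0.50 with all libraries and 0.77 without replicate 3 (adjusted p 0.0145).

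The other lists had medians from -0.10 to 0.14 with all libraries. The iron regulon had 23 of 29 positive interactions and a median of 0.14 (0.068 with the length offset), with 3 genes (10.3%, against 3.3% of all genes in that direction) under an unadjusted p of 0.05, all positive. These were ISU1, the scaffold of iron-sulfur clusters, at 0.29 (SE 0.10, adjusted p 0.796), and the ferric reductase genes FRE2 and FRE5, at 0.32 and 0.34. Cytosolic ribosomal proteins had 99 of 136 negative interactions and a median of -0.058. Of them, 2 genes were under 0.05, both negative (1.47%, against 2.63% of all genes in that direction). RPS30B, the one with the smallest p, had -0.61 (SE 0.26, adjusted p 0.829) and shares 192 bases at 95.8% identity with RPS30A. Hexose transport genes had 18 of 23 positive and a median of 0.11, and autophagy genes 21 of 31 and 0.11. HXT17, a hexose transporter, stood at 4.57 ± 1.48 CPM in treated and 5.31 ± 0.942 in untreated NTT1, against 4.2 ± 0.488 in treated and 10.3 ± 1.41 in untreated wild type. Its interaction was 1.08 (SE 0.31, adjusted p 0.687), and since HXT13 is 96.5% identical over 1693 aligned bases the reads could be split between them. ATG2, a lipid transfer protein of autophagosome growth, had 0.70 (SE 0.30, adjusted p 0.829).

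Sulfate assimilation and methionine genes had a median of 0.12, with STR2 at 0.25 (adjusted p 0.813), the PHO regulon 0.061, amino acid permeases 0.039, with the arginine permease CAN1 at 0.22 (adjusted p 0.829), and heat shock chaperones 0.011, with the heat shock factor HSF1 at 0.34 (adjusted p 0.747). Glycolysis and fermentation had -0.0072, with the alcohol dehydrogenase ADH5 at 0.35 (adjusted p 0.813), the tricarboxylic acid cycle -0.013, with the pyruvate carboxylase PYC2 at 0.74 (adjusted p 0.813), cell wall mannoproteins -0.032, with HSP150 at 0.65 (adjusted p 0.829), mitochondrial nucleotide and phosphate carriers -0.067, with the ATP-Mg/phosphate carrier SAL1 at -0.23 (adjusted p 0.829), and the zinc regulon -0.10, with IZH2 at -0.21 (adjusted p 0.879). In each of these lists at most 2 genes had an unadjusted p under 0.05, a share of 0% to 7.14%, against 5.93% of all genes. Several of these signs rested on single libraries. Leaving out 1 library at a time, the median ran from -0.20 to 0.35 for sulfate assimilation and methionine (2 of 12 fits of the other sign, -0.20 being without untreated wild-type replicate 2) and from -0.061 to 0.08 for heat shock chaperones (5 of 12). It ran from -0.039 to 0.051 for glycolysis and fermentation (6 of 12), from -0.083 to 0.051 for the tricarboxylic acid cycle (3 of 12), from -0.064 to 0.09 for cell wall mannoproteins (5 of 12), from -0.066 to 0.06 for purine salvage and uptake (4 of 12) and from -0.17 to 0.016 for the zinc regulon (2 of 12). In 1 fit each, the one without untreated wild-type replicate 2, it was -0.026 for autophagy, -0.012 for the PHO regulon and 0.041 for cytosolic ribosomal proteins. With the length offset it was -0.0023 for amino acid permeases and 0.021 for cell wall mannoproteins, with upper-quartile factors -0.016 for heat shock chaperones, and under voom with sample quality weights -0.029 for sulfate assimilation and methionine, -0.0097 for strain markers, 0.11 for the tricarboxylic acid cycle, 0.0015 for purine salvage and uptake and 0.0019 for cell wall mannoproteins. Among 25 strain marker genes tested, 2 positive and 3 negative ones had an unadjusted p under 0.05 (20.0%, against 5.93% of all genes), HMRA1, MFA2, LYS2, CAN1 and MFA1. HMRA1, MFA2 and MFA1 are 487, 117 and 111 bases long, and with the length offset their unadjusted p was 0.0606, 0.38 and 0.189. For LYS2 it was then 0.0641 and for CAN1 0.0746, so none of those named stayed under 0.05. A different gene of the list, with a positive interaction, passed with the offset.

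**Figure D5:**
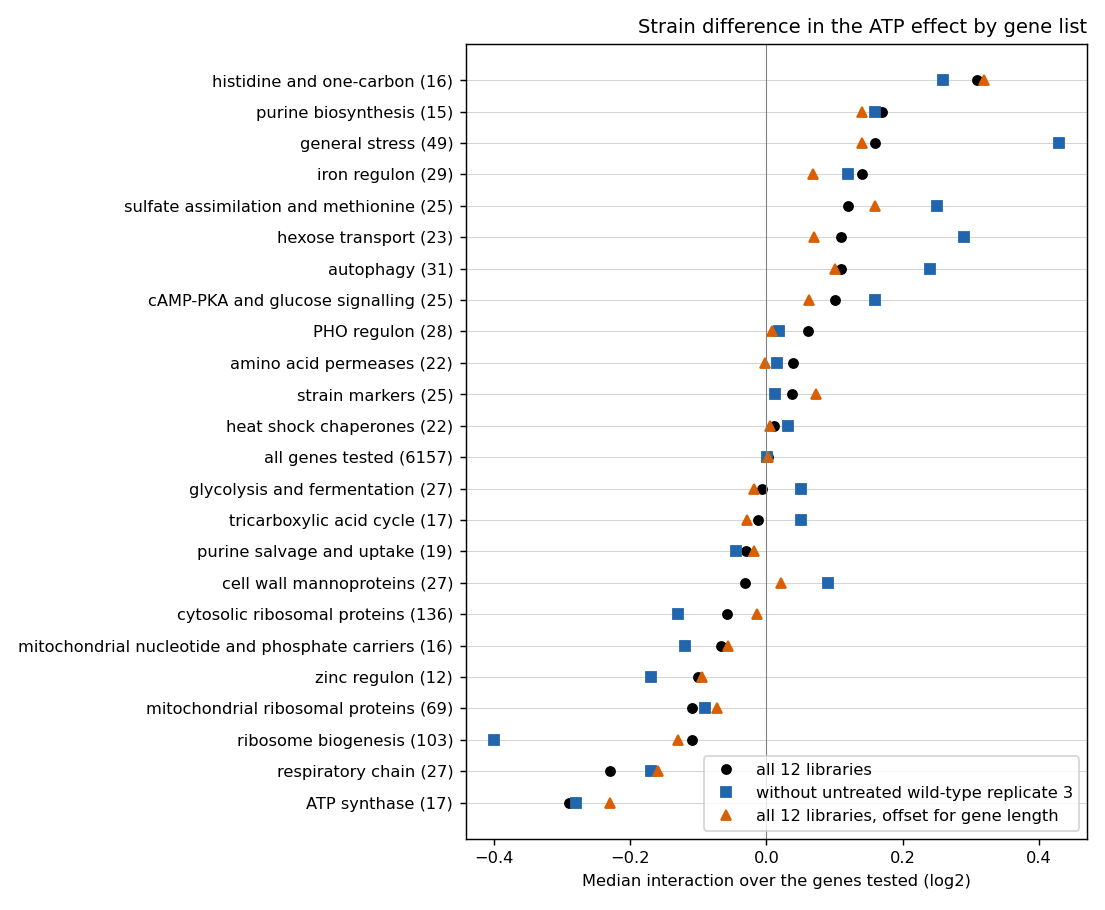
Median interaction (log2, horizontal axis) of each gene list and of all genes tested, with the number of genes in parentheses, for all libraries, without untreated wild-type replicate 3, and with the offset for gene length. ATP synthase, at -0.29, and histidine and one-carbon genes, at 0.31, lie at the ends with all libraries, while ribosome biogenesis and general stress reach -0.40 and 0.43 without replicate 3.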

How the data were processed

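RNA was sequenced from 12 yeast cultures. The authors' deposited table holds unnormalised read counts for each gene in each library, whole numbers with unequal totals. HISAT2 2.0.5, featureCounts 1.5.0, DESeq2 1.20.0 and build R64 are named per the submitters' processing notes, without role or settings. The use of strand is not given in the sources used here, so overlapping and antisense genes cannot be told apart. Columns were matched to libraries by library name and groups taken from titles. Gene names, lengths and promoter sequence came from RefSeq's R64 table and genome, which matched 6023 features. The 1104 unmatched ones held 0.282% of counts.

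For the interaction, R 4.3.3 ran the quasi-likelihood test of edgeR 4.0.16 (filterByExpr, TMM, glmQLFit and glmQLFTest, a mean per group over 12 libraries, Benjamini-Hochberg over 6157 genes, threshold 0.05). Each SE is approximate, being back-calculated from a gene's F value, and the 95% intervals rest on it. DESeq2 1.42.0 and limma 3.58.1 were alternatives. The fit was tested on simulated counts with 200 changed genes, of whose calls 5.45% were unchanged genes. An exact test of 3 against 3 libraries cannot go under 0.10, so none was run. Named genes are the 10 with the smallest unadjusted p in each direction among named genes with a mean of at least 50 counts, the one with the smallest p in each of 23 lists, and the 5 in each direction with the smallest p among calls without untreated wild-type replicate 3. Further members of described lists are given as examples. Members and lists were chosen with earlier results of these data known, and lists were described and not tested. Near copies were found with blastn 2.17.0, at 95% identity or more over at least 100 bases. Replicate numbers did not pair the libraries: over 18 pairs with the same number, the correlation of deviations from group means ran from -0.44 to 0.311, and 5 were over 0.1.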

Additional observations from a re-analysis of the deposited data

Results flagged for a closer look

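In 7 of the genes named by the rule on p, every treated library lay on one side of every untreated library in NTT1 and on the opposite side in wild type. The difference itself was tested by the interaction in edgeR and passed the adjusted threshold in none of the 7. The log2 interaction was 0.80 for ATR2 (adjusted p 0.587), 0.64 for PHD1 (0.587), 0.47 for TOR1 (0.587) and 0.47 for ADE17 (0.587), where ATP went with higher levels in NTT1 and lower levels in wild type. It was -0.68 for EGO2 (adjusted p 0.559), -0.55 for MRPL37 (0.587) and -0.38 for RTC6 (0.587), where the order was the reverse. SHM2 and YDL016C, named outside that rule, had such an order too, at 0.37 (adjusted p 0.715) and -1.09 (adjusted p 0.388). Over all genes tested, 29 (0.471%) did. A small interaction p in these same libraries was the rule that named the 7, and it favours such an order. Their number is therefore not to be weighed against that share. EGO2, MRPL37 and RTC6 are 228, 318 and 282 bases long, in the shortest 10% of protein-coding genes, and TOR1 is 7413 bases long, in the longest 10%. With the offset for gene length the interactions were -0.50, -0.41, -0.23 and 0.33.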

How the results depend on the processing

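For the interaction, 0 genes were called with RLE size factors, upper-quartile factors, no filter, a minimum of 50 counts on average, the replicate block and the offset for gene length, 6 by DESeq2, 3 by voom with sample quality weights, and 0 to 106 in the 12 fits that left out 1 library, 106 being the fit without untreated wild-type replicate 3 and 0 the other 11. The length offset without that library called 102, of which 93 were among the 106. For ATP in NTT1 the counts were 591 by DESeq2, 1420 by voom, 1035 with the length offset without that library, and 69 (without untreated NTT1 replicate 2) to 1030 (without untreated wild-type replicate 3) leaving out 1 library. For ATP in wild type they were 1120 by DESeq2, 2182 by voom and 2124 with the offset without that library. Leaving out 1 library, they ran from 89 (without untreated wild-type replicate 1) to 2086 (without its replicate 3). With the replicate number as a block the counts were 0 for the interaction, 250 for ATP in NTT1 and 671 for ATP in wild type. The interaction of each of 50 named genes kept its sign in every one of 1049 gene and setting combinations. Of these combinations, 44 passed the adjusted threshold, under DESeq2, voom or the fits without untreated wild-type replicate 3. Most of these genes were named for a small p in the same libraries, and every setting refits those counts. A kept sign is thus largely set by that choice. The median of the ribosome biogenesis list ran from -0.40 to 0.042 and that of general stress from -0.068 to 0.43 when 1 library was left out. Histidine and one-carbon genes ran from 0.21 to 0.35 and ATP synthase genes from -0.39 to -0.21, and under voom they were 0.11 and -0.14. Under voom the respiratory chain median was 0.0033. Why the settings differ was not tested. The median SE of the interaction was 0.12 without untreated wild-type replicate 3 and 0.14 with all libraries.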

Other observations

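Besides genes already described, DESeq2 called 2 features for the interaction that were chosen for mention after their values were seen and that have no length in the gene table used. The snoRNA snR37 stood at 2.59, 2.88 and 2.88 CPM in treated and 1.04, 0.74 and 1.14 CPM in untreated NTT1, against 1.62, 0.456 and 1.4 CPM in treated and 2.28, 1.53 and 2.23 CPM in untreated wild type. The NTT1 groups separated, the wild-type groups overlapped, and the mean was 30.6 counts per library. Its log2 interaction was 2.33 in edgeR (adjusted p 0.559). The feature YDL016C stood at 5.58, 6.49 and 6.23 CPM in treated and 9.89, 9.68 and 8.34 CPM in untreated NTT1, against 9.46, 8.16 and 10.3 CPM in treated and 7.46, 5.41 and 7.13 CPM in untreated wild type. Treated libraries were all lower in NTT1 and all higher in wild type, with an interaction of -1.09 (adjusted p 0.388). 

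The sample weights that voom estimated were lowest for untreated wild-type replicates 3 and 2, at 0.157 and 0.239, against 0.594 to 2.94 for the other 10 libraries. The level of the sulfate assimilation and methionine list was 0.71 in untreated wild-type replicate 2 and 0.43 in untreated NTT1 replicate 3, and between -0.26 and 0.026 in the other 10 libraries.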
